A study of Mus musculus with 2 samples.

Results

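The 10 genes described here build microRNAs or carry out silencing with them, together with the host gene of miR-155 itself. They are Mir155hg, Drosha, Dgcr8, Xpo5, Dicer1, Tarbp2, Ago1, Ago2, Ago3 and Tnrc6a. All 33 array probe sets whose platform annotation names only one of them were taken, and these 10 genes stand among 18193 genes that the arrays measured with at least 1 singly named probe set. No probe set naming several genes held any of them.

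RNA of mouse B cells was measured on 2 Affymetrix 3′ arrays, 1 titled mir155KO and 1 titled mir155WT, in a study of cultured and activated B cells with and without miR-155. The genotype entries follow the titles, whereas the source names give the opposite genotype for each array. Groups here follow the titles, and every sign below turns over if the source names are right. Both samples have a C57 background from Jackson Laboratory, the protocol speaks of male mice, and both received cycloheximide, which blocks translation elongation, at 100 ug/ml for 8 min before harvest. The labels name neither the allele, nor the number of animals per array, nor the agent used for activation. The growth protocol names haematopoietic progenitors kept with granulocyte colony-stimulating factor and stem cell factor for 6 days, which is another culture than the B cells of the titles.

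A microRNA starts as a hairpin within a longer transcript. In the nucleus the Microprocessor, made of the RNase III enzyme Drosha and its RNA-binding partner DGCR8, cuts the hairpin out, and exportin 5 carries it to the cytoplasm. There Dicer, helped by TRBP, removes the loop, and an Argonaute protein keeps one strand as a guide. The Argonaute then recruits a GW182 protein such as TNRC6A, which brings in the enzymes that shorten and decay the target mRNA. In B cells miR-155 is induced by activation and is needed for a normal germinal centre and antibody response.

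The precursor and products of miR-155 are shown because miR-155 is the microRNA that both titles name. The hairpin lies on the plus strand at chr16:84714140-84714204 (GRCm38.p6, RefSeq), inside Mir155hg. In the hairpin the capitals mark the mature strands, and in the mature strands they mark the seed, bases 2 to 8, through which a microRNA pairs with its targets.
mmu-mir-155 hairpin: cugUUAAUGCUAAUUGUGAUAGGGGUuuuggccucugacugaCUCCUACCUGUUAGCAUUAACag
mmu-miR-155-5p: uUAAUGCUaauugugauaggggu
mmu-miR-155-3p: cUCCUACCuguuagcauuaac
The 65-base hairpin holds a 23-base 5p strand and a 21-base 3p strand, and 16 bases lie between them. Its predicted minimum free energy fold was -27.2 kcal/mol, with 19 base pairs between both strands and all 7 bases of the 5p seed paired. None of the other mature mouse microRNAs in the RefSeq table, which has 1738 mature entries in all, carried the same seed (0 entries). The arrays read messenger-like transcripts, so neither mature strand was measured.

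Mir155hg, the long non-coding transcript from which the hairpin is cut, was read by the single probe set 1428027_at. The gene spans 2223 bases at chr16:84713023-84715245, and the hairpin begins at base 1118 of this span. Its log2 intensity was 10.88 on the array titled mir155KO and 6.63 on the array titled mir155WT. The host transcript was thus higher on the array titled mir155KO by 4.25 on the log2 scale. The measured ratio was 19.0, and because the level on the array titled mir155WT lay under 6.71, the median level over probe sets other than array controls, the difference is given as at least 18.0-fold. A gene counts as expressed here where its mean over both arrays reaches 6.71, and Mir155hg passed only through the array titled mir155KO. The next largest difference of any expressed gene was 1.63 in size, for the interferon-induced gene Oasl2, which was lower on the array titled mir155KO.

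The targeted locus therefore went against the titles. The labels do not say which part of the gene the allele removes. A probe set outside that part would check neither assignment. Each title has 1 array and hence no replicate, so no value in this text carries a replicate error or a p-value, and differences are described by size alone.

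**Figure D1:**
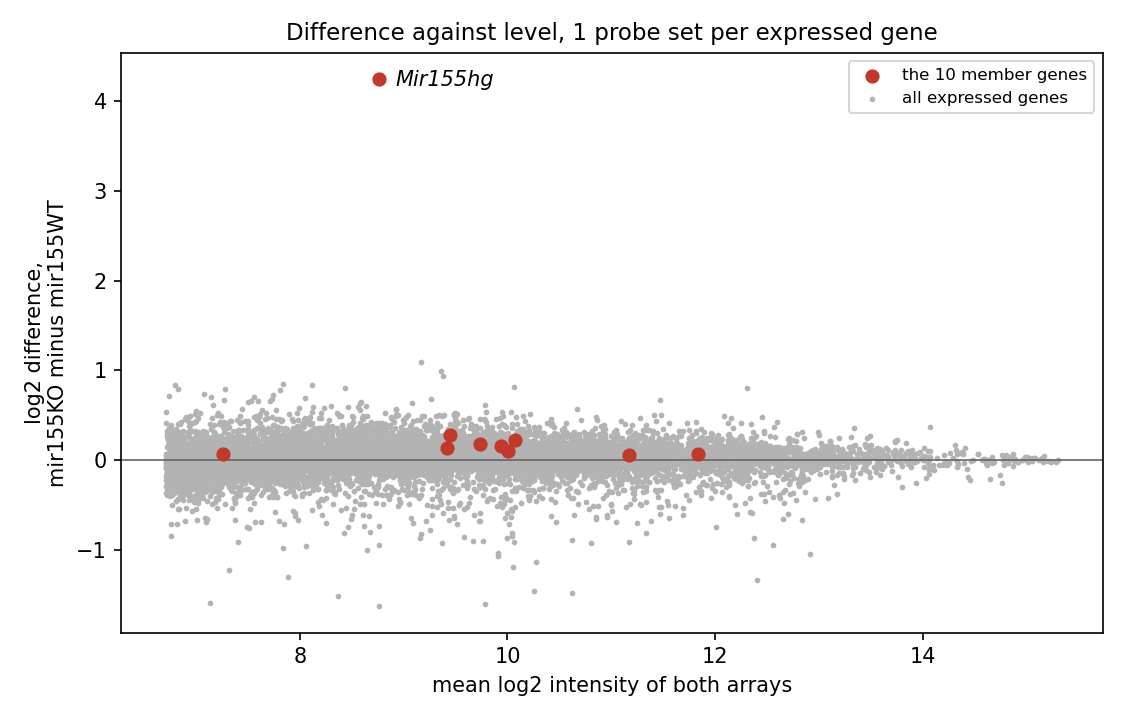
Log2 difference, mir155KO minus mir155WT, against the mean log2 intensity of both arrays, with 1 point per expressed gene and the 10 members in red. Mir155hg stands at 4.25, while the other 9 members lie between 0.05 and 0.29 inside the cloud of all genes.

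The other 9 genes differed little. Taking for each gene its probe set with the highest mean, all 9 were higher on the array titled mir155KO, by 0.05 to 0.29 with a median of 0.14. Over all 10717 expressed genes the median was 0.03, and 56.9% were higher on that array. Of the 28 member probe sets at or above the level for expression, 1, that of Mir155hg, differed by 0.5 or more (1.41-fold), against 1.93% of all 19171 expressed probe sets with a single gene. Of the other 27, 22 were higher on the array titled mir155KO and 5 lower, where 58.8% of all such probe sets were higher. As a technical scale, pairs of expressed probe sets naming one gene gave differences that lay a median of 0.084 apart over 4906 genes, and 0.31 apart at the 95th percentile. Each of the 9 differences lay within 0.31 of 0. So did most expressed genes, whose 5th and 95th percentiles were -0.29 and 0.29. This technical scale comes from the same 2 arrays and holds no variation between animals or repeated arrays.

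**Figure D2:**
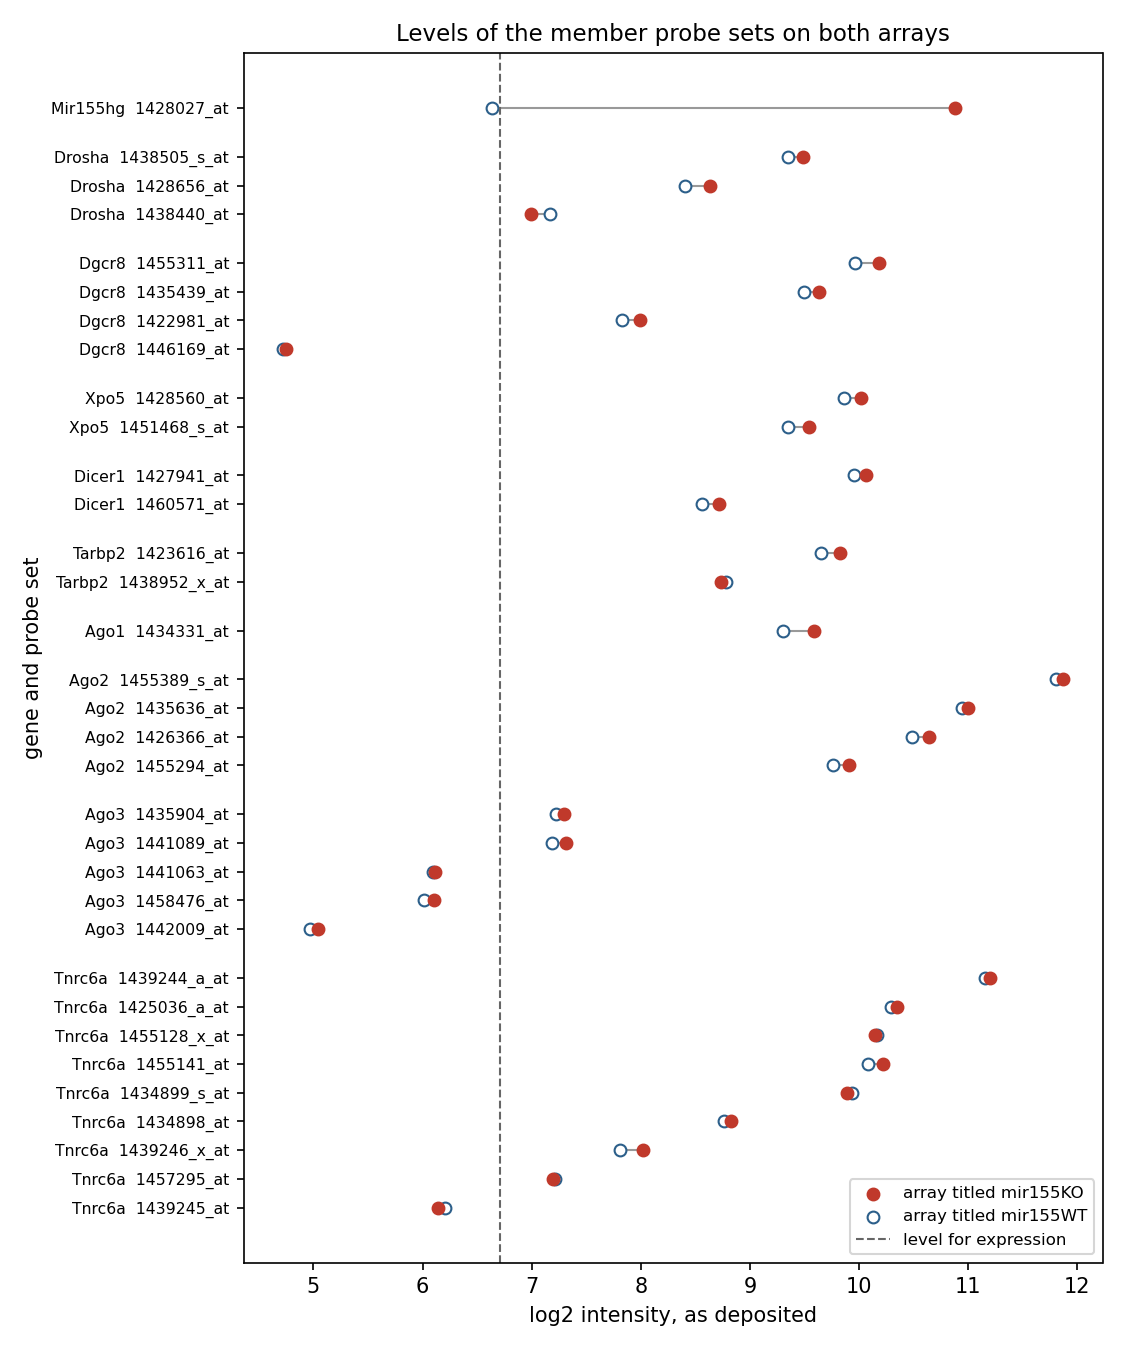
Deposited log2 intensity of each of the 33 member probe sets on the array titled mir155KO (filled red) and on the array titled mir155WT (open blue), with a dashed line at the level for expression (6.71). The points of each pair nearly coincide except for Mir155hg, at 10.88 and 6.63. Levels of different probe sets are not comparable with each other.

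Within the Microprocessor, Dgcr8 was read alike by its probe sets and Drosha was not. Dgcr8 (chr16:18253948-18289251) had 10.18 on the array titled mir155KO and 9.96 on the array titled mir155WT with its brightest probe set. It was higher on the array titled mir155KO by 0.22, 0.14 and 0.17 with its 3 expressed probe sets, and the remaining set, below the level for expression, differed by 0.03. Drosha, the catalytic subunit (chr15:12824804-12935291), had 9.49 on the array titled mir155KO and 9.35 on the array titled mir155WT with probe set 1438505_s_at. Its 3 probe sets disagreed in direction, with differences of 0.14, 0.22 and -0.17. The set with the opposite sign, 1438440_at, was the dimmest, at 6.99 on the array titled mir155KO and 7.16 on the array titled mir155WT. The range of 0.39 over the probe sets of Drosha compares with a median range of 0.16 over the 1244 genes with 3 expressed probe sets. Dgcr8 and Mir155hg share chromosome 16 but lie far apart on it.

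Dgcr8 is also a substrate of the Microprocessor, which is known to cut hairpins in the Dgcr8 transcript and so to limit it. RefSeq places 2 microRNA hairpins within the gene, on its minus strand, and their mature strands are shown with the seed in capitals because they mark those sites.
mmu-miR-1306-5p: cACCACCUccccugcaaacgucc
mmu-miR-1306-3p: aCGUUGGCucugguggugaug
mmu-miR-3618-5p: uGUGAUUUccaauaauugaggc
mmu-miR-3618-3p: cUACAUUAaugaaaagagcaau
They occupy chr16:18284288-18284310, chr16:18284248-18284268, chr16:18284602-18284623 and chr16:18284562-18284583 (GRCm38.p6) in that order. No value here separates cut from uncut Dgcr8 transcripts.

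Xpo5, which encodes the export receptor of precursor hairpins (chr17:46202811-46243598), was read alike by both its probe sets. It had 10.02 on the array titled mir155KO and 9.86 on the array titled mir155WT with 1428560_at, a difference of 0.16. With 1451468_s_at it had 9.54 on the array titled mir155KO and 9.35 on the array titled mir155WT, a difference of 0.19. On a linear scale these differences are 12.0% and 14.2%.

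The cytoplasmic processing step showed equally small differences. Dicer1 (chr12:104687740-104751968) had 10.06 on the array titled mir155KO and 9.95 on the array titled mir155WT with 1427941_at, and 8.71 and 8.56 with 1460571_at. It was higher on the array titled mir155KO by 0.11 and 0.15. Tarbp2, which encodes TRBP (chr15:102516077-102523676), had 9.83 on the array titled mir155KO and 9.65 on the array titled mir155WT with 1423616_at, a difference of 0.18. Its second probe set, 1438952_x_at, had 8.73 on the array titled mir155KO and 8.78 on the array titled mir155WT, a difference of -0.05. The direction of Tarbp2 therefore depended on the probe set. The suffix x marks a set in which some probes may bind other transcripts. The Tnrc6a sets 1439246_x_at (0.20) and 1455128_x_at (-0.02) carry it too.

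Among the Argonaute genes, Ago1 had the largest difference of the 9 and rested on 1 probe set. Ago1 (chr4:126435012-126468707) had 9.59 on the array titled mir155KO and 9.30 on the array titled mir155WT, a difference of 0.29 (21.9% higher). Of all expressed genes 10.4% had a larger difference in either direction. Ago2, the only mammalian Argonaute in this group known as an efficient slicer of fully paired targets (chr15:73101625-73184947), had 11.87 on the array titled mir155KO and 11.80 on the array titled mir155WT with its brightest probe set. All 4 of its probe sets were expressed and higher on the array titled mir155KO, by 0.06 to 0.16.

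Ago3 (chr4:126326994-126431670) lies next to Ago1, with 3341 bases between both genes. It was close to the level for expression, at 7.30 on the array titled mir155KO and 7.23 on the array titled mir155WT with 1435904_at, and at 7.32 and 7.18 with 1441089_at. All 5 of its probe sets were higher on the array titled mir155KO, by 0.02 to 0.13, but only 2 of them were expressed. The neighbouring genes Ago1 and Ago3 thus differed by 0.29 and 0.07. Ago4, the remaining Argonaute paralog and no member of the 10, had 7.00 on the array titled mir155KO and 7.09 on the array titled mir155WT, a difference of -0.09. Its second probe set, below the level for expression, differed by 0.14.

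Tnrc6a, the GW182 scaffold that Argonautes recruit (chr7:123031101-123195296), had the most probe sets of the 10 genes and, by the brightest set of each gene, the smallest difference. With plain _at sets only it differed by 0.14, more than Ago2 (0.06), Ago3 (0.07) or Dicer1 (0.11). Its brightest set read 11.20 on the array titled mir155KO and 11.15 on the array titled mir155WT, a difference of 0.05. Of its 9 probe sets 5 were higher and 4 lower on the array titled mir155KO, from -0.07 to 0.20, and 8 of them were expressed. These sets therefore gave no common direction. Tnrc6b, a paralog, differed by 0.01, a sign that turned to -0.02 after quantile normalization and to -0.03 after subtraction of a loess curve. Its other paralog Tnrc6c differed by -0.03 with its brightest probe set, and its 3 expressed sets ran from -0.05 to 0.14.

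**Figure D3:**
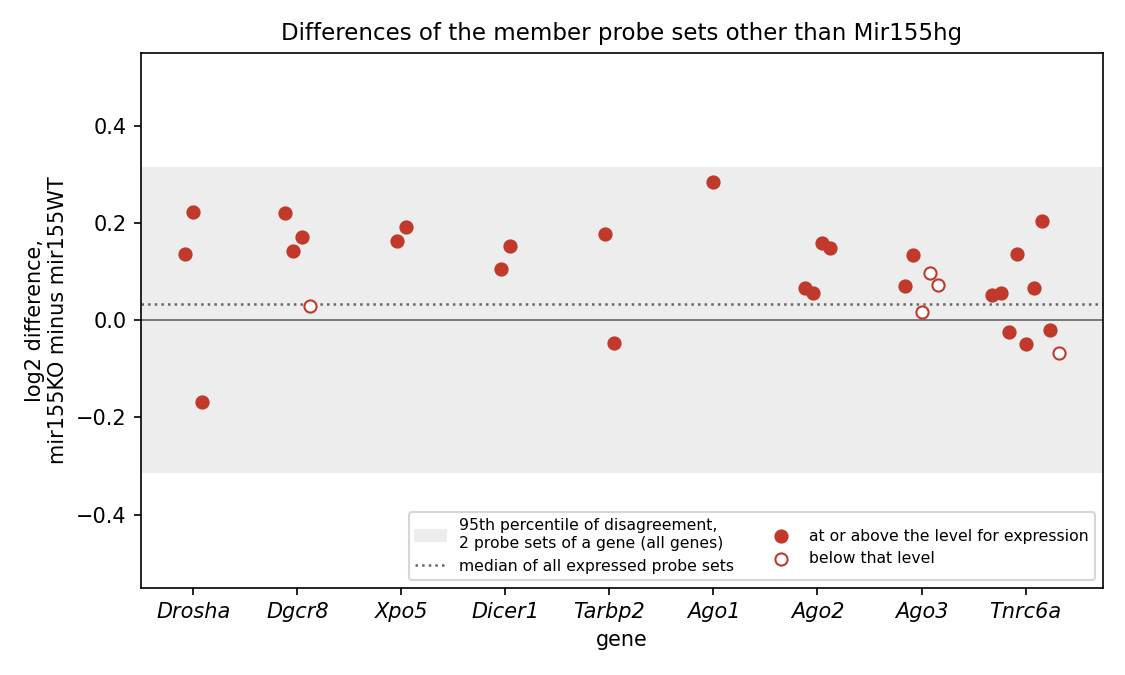
Log2 difference, mir155KO minus mir155WT, of each probe set of the 9 genes other than Mir155hg, filled where the mean level reached 6.71 and open below it. All points lie between -0.17 and 0.29, and those of Drosha, Tarbp2 and Tnrc6a fall on both sides of 0. The grey band, which holds every point, reaches 0.31 to either side of 0. Its width is the 95th percentile of the gap between paired expressed probe sets of one gene, and it sets no limit to their disagreement.

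Other genes of the pathway were taken from 6 lists with 98 distinct genes, of which 92 had a singly named probe set and 77 were expressed. None of these 77 differed by 0.5 or more (0 genes), against 1.99% of all expressed genes. In all, 53 were higher on the array titled mir155KO and 24 lower, with a median of 0.05. This split depended on the scaling, and was 42 and 35 after quantile normalization and 40 and 37 after subtraction of a loess curve.

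Cofactors of nuclear processing and export had a median of 0.10, with 14 of 17 expressed genes higher on the array titled mir155KO. The highest was Ncbp2, a subunit of the nuclear cap-binding complex, with 9.92 on the array titled mir155KO and 9.60 on the array titled mir155WT, a difference of 0.31. The lowest was the splicing factor gene Srsf3, at -0.06. These cofactors also serve messenger RNA in general.

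Dicer partners and Argonaute loading factors had a median of 0.05, with 9 of 13 higher. Tsnax, which encodes translin-associated factor X, was the highest at 0.22, and Bcdin3d, an RNA methyltransferase gene, the lowest at -0.10. Prkra, which encodes the TRBP paralog PACT, had 7.06 on the array titled mir155KO and 6.91 on the array titled mir155WT, a difference of 0.15. Its second probe set, below the level for expression, differed by -0.25.

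Argonaute and GW182 paralogs with their silencing partners had a median of 0.01, with 8 of 14 expressed genes higher on the array titled mir155KO and 6 lower, a split that turned to 6 and 8 after quantile normalization and after loess subtraction. Fmr1, which encodes the RNA-binding protein FMRP, was the highest at 0.16. The helicase gene Mov10 was the lowest, with 8.78 on the array titled mir155KO and 8.95 on the array titled mir155WT, a difference of -0.17.

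The enzymes that end the life of a silenced mRNA were equally flat. Deadenylation, decapping and decay genes had a median of 0.03, and 15 of 21 were higher on the array titled mir155KO, a split that became 10 and 11 after quantile normalization and 9 and 12 after loess subtraction. Edc3, an enhancer of decapping, was the highest at 0.22, and Btg1, an antiproliferative gene whose protein binds the deadenylase, the lowest at -0.09. Genes of microRNA tailing, trimming and turnover had a median of 0.03, with 7 of 12 higher and 5 lower, which turned to 5 and 7 after either scaling. The poly(A) polymerase gene Tent4b was the highest at 0.18 and the endoribonuclease gene Zc3h12a the lowest at -0.10. PIWI pathway genes, which act in the germ line, served as a contrast, and 0 of 10 measured were expressed.

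**Figure D4:**
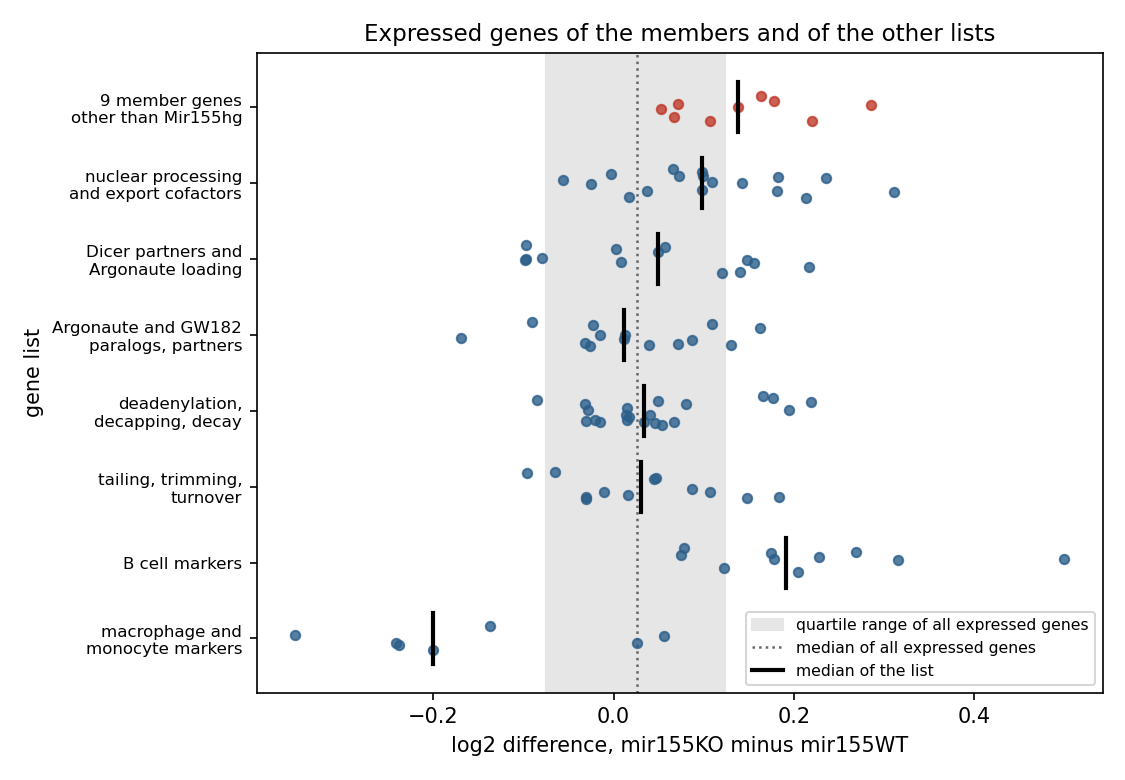
Log2 difference, mir155KO minus mir155WT, of the expressed genes in each list (points) with the list's median (black bar), over the quartile range of all expressed genes (grey) and their median of 0.03 (dotted). The 9 members have a median of 0.14, the pathway lists run from 0.01 to 0.10, and B cell markers lie at 0.19 and macrophage and monocyte markers at -0.20.

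Markers of B cells and of macrophages had medians farther from 0 than the 0.14 of the 9 genes. Of 11 measured B cell markers, which included Cd79a, Cd79b, Ms4a1 and Pax5, 10 were expressed. All 10 were higher on the array titled mir155KO, with a median of 0.19. The remaining one, Fcrla, differed by -0.11 below the level for expression. The summed linear intensity of the 11 was 64065 on the array titled mir155KO and 56528 on the array titled mir155WT. The brightest probe sets weigh most in such a sum, and levels of different probe sets are not comparable with each other. Of 8 measured macrophage and monocyte markers 7 were expressed, with a median of -0.20. Those 7 split into 2 higher on the array titled mir155KO and 5 lower. Cd14, Lyz2, Cd68 and Fcgr1, which were lower, lay close to the level for expression. They read 6.69 to 6.88 on the array titled mir155KO and 6.89 to 7.21 on the array titled mir155WT. Csf1r, also lower, had 7.52 and 7.65 in that order. The higher ones were Ccr2, at 8.26 and 8.20, and Adgre1, at 7.26 and 7.24. The last of the 8, Itgam, differed by -0.54 below the level for expression. The summed linear intensity of the 8 was 1114 on the array titled mir155KO and 1216 on the array titled mir155WT. Of 10 measured genes that mark neutrophils and neutrophil precursors 2 were expressed, of 6 T cell markers 4 and of 6 progenitor markers 0. The 2 expressed neutrophil markers were lower on the array titled mir155KO, with a median of -0.06. The 4 expressed T cell markers had a median of -0.02, with 2 higher and 2 lower. The level for expression is a median, and 10717 of all 18193 genes reached it. The counts of expressed markers therefore do not show whether such cells were present. The part of these markers in the differences of the 9 genes was not tested, and in such bulk samples fewer cells of a type and less RNA per cell cannot be told apart.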

How the data were processed

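The deposited table holds log2 intensities of 45101 probe sets on 2 arrays, between 3.09 and 15.4. The unit was read from the values. How the authors summarised and normalized them is not given in the sources used here. After sorting, the arrays differed by at most 0.063 at any rank, so a difference in total RNA per cell would not show. Per the labels' protocols, cRNA was biotinylated by an Affymetrix 3′ IVT Express kit. Probe sets were named from the platform annotation (1 gene for 34945, several for 932, none for 9160, controls 64), and 34741 matched RefSeq genes of GRCm38.p6 by Entrez number.

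Differences are mir155KO minus mir155WT. A gene takes its probe set with the highest mean and counts as expressed at or above 6.71, the median of probe sets that are not controls. With 1 array per group there is no test, and precision is limited by that number. The text names all members, Ago4, Tnrc6b, Tnrc6c, Prkra, the highest and lowest expressed gene of each pathway list and any gene of those lists at 0.5 or more. Markers are named as examples. Oasl2, Fcrla and the macrophage and monocyte markers were named after their values were seen. Papd4 and Papd5, older names of listed genes, count once. Members and lists were chosen with earlier results of these data known. The alternatives were quantile normalization, loess subtraction (span 0.3), other filters, other probe set rules and a call at 1. The computation was tested on simulated data whose shifts were far larger than the differences of the members other than Mir155hg. It was not tested at differences of that small size. ViennaRNA 2.7.2 (RNAfold) folded the hairpin, and statsmodels 0.14.6, pandas 2.3.3, NumPy 2.4.6 and matplotlib 3.10.9 ran under Python 3.11.15.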

Additional observations from a re-analysis of the deposited data

How the results depend on the processing

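The difference of Mir155hg was 4.25 after quantile normalization and 4.19 after subtraction of a loess curve. The count of member probe sets at 0.5 or more became 0 with the filter at the 75th percentile, which removes Mir155hg because its mean over both arrays lies under that level, and stayed at 1 under the other 5 alternatives. The median of the other 9 genes ran from 0.08 (loess) to 0.16 (plain _at probe sets only) over 6 alternatives, with every expressed gene higher on the array titled mir155KO in each, 8 genes being expressed with the mean of the probe sets and with the filter at the 75th percentile. Over 36 values of the 9 genes under 4 alternatives 0 turned sign. Of these values 34 lay within 0.084 of the gene's main value, the median gap between paired probe sets given above. Beyond it, Drosha moved to 0.22 with plain _at probe sets and Tarbp2 to 0.066 with the mean of its sets. Tnrc6a went from 0.05 to 0.14 with plain _at probe sets, just within that bound. Some of the 36 values could not turn. A brightest set that is plain _at stays the choice under that rule, and Ago1 has 1 probe set to average. After scaling, the median of all expressed genes was -0.0023 (quantile) and -0.0088 (loess). The pathway count stayed at 0 under all 7 alternatives. For this count and the member count, the outcome of the call at 1 was fixed by the differences already given. No paired analysis was possible because each title has a single array, and for the same reason no array could be left out.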

Other observations

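Host transcripts of other microRNAs were looked up by symbol after the data were seen. Besides Mir155hg the arrays named 7 such genes with 9 probe sets, and 2 of these sets reached the level for expression. Mir22hg, the host of miR-22, had 9.01 on the array titled mir155KO and 9.33 on the array titled mir155WT, a difference of -0.32, and it rested on 1 probe set. Mir670hg had 6.76 on each array with its brighter set.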
